A study of Mus musculus with 8 samples.

Results

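The mitochondrial respiratory chain was followed in Snd1 KO liver through the nuclear genes that encode its subunits. The genes were chosen by symbol: names that begin with Ndufa, Ndufb, Ndufc, Ndufs or Ndufv (complex I), the Sdh genes (complex II), Uqcr and Cyc1 (complex III), Cox4i, Cox5, Cox6, Cox7 or Cox8 (complex IV) and Atp5 (complex V), without the Ndufaf assembly factors. On the array this gave 100 probes for 81 genes, out of 25697 probes for 16593 genes. A gene was kept when its probe was detected over the negative control beads (detection p under 0.05) on at least 4 of the 8 arrays, which left 70 of the 81 genes among 8134 genes in all: 33 of complex I, 3 of complex II, 7 of complex III, 12 of complex IV and 15 of complex V. Each gene, Ndufa4 included, was placed in a complex by its symbol alone, not by evidence of where the protein sits. Sdha and the subunits that mitochondrial DNA encodes were not analysed here.

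Snd1 (Tudor-SN) is an RNA-binding protein with nuclease-like repeats and a Tudor domain, and the study asked which liver transcripts change when it is lost. Left liver lobes of 4 Snd1 KO and 4 wild type (WT) male C57BL/6N mice, 8 to 12 weeks old, were sampled unfasted around noon, and RNA of each mouse was hybridised to 1 Illumina bead array. The KO allele lacks the first exon in every tissue, because the floxed gene was deleted in the germline with a CAG promoter-driven Cre. It was made in embryonic stem cells of another strain and backcrossed to C57BL/6N, and the mice were littermates from heterozygous pairs.

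Complexes I to IV pass electrons, taken from NADH by complex I and from succinate by complex II, through coenzyme Q, complex III and cytochrome c to oxygen at complex IV. Complexes I, III and IV pump protons across the inner mitochondrial membrane, and complex V, the ATP synthase, lets them flow back to make ATP. Each complex has a catalytic core and, except in complex II, many small accessory subunits around it. Hepatocytes are rich in mitochondria and use this ATP for glucose, urea and lipid metabolism.

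The Snd1 probe was not detected on any KO array and was detected on all 4 WT arrays, with a log2 level of 4.20 ± 0.04 in KO and 6.81 ± 0.05 in WT (SD, n = 4 each), at least 4.94-fold lower in KO (adjusted p = 2.98e-07; the log2 difference of −2.60 was −1.07 on uncorrected intensities, normalized without subtracting background). Whether the probe lies in the deleted exon was not examined. Mean probe intensity before normalization was 215, 290, 281 and 223 on KO 1 to KO 4 and 262 to 283 on the WT arrays, and 10684 to 12134 probes were detected per array. Of the 9 hepatocyte markers on the array, 7 were detected on all 8 arrays and Fgb, a fibrinogen chain, on none. Their summed normalized intensity was 71024 to 78537 in KO and 59361 to 67829 in WT, with no overlap. As single genes, only Ass1 and Apoa2 did not overlap. Ass1 had log2 levels of 13.01 to 13.25 in KO and 12.35 to 12.66 in WT, and Apoa2 14.04 to 14.09 and 13.77 to 13.99. The part of this sum in the values below was not tested. The sums of the 7 stellate cell markers did not overlap either, at 3028 to 4299 in KO and 2742 to 2963 in WT. As single genes, Acta2 and Reln did not overlap, while Dcn, Des, Lrat, Col1a1 and Col3a1 did. In whole liver RNA, fewer cells of a type and less RNA per cell cannot be told apart. A number such as KO 3 is used here only to name a mouse.

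Promoters of respiratory chain genes are known to be rich in sites for NRF1, for the ETS factor GABPA and for YY1. RefSeq promoter windows of 250 bases before to 50 bases after the gene start (GRCm38.p6) were found for 59 of the 70 genes, in 64 windows. The NRF1 core GCGCANGCG, read on both strands, was in 26.6% of these windows and in 6.25% of all 32851 mouse windows. The ETS core CCGGAAG was in 23.4% and 8.86%, and the YY1 core AANATGGCG in 15.6% and 2.38%. These motifs do not overlap one another in the windows below. A match is a description of the letters, not of binding. The windows of 5 genes are printed, chosen as the largest rise and the largest fall of complexes I, III and V. Uqcrc2, the largest rise of complex III, had no window. Ndufa9 (chr6:126849095-126849394, minus strand) and Atp5pb (chr3:105959214-105959513, minus strand) were higher on all 4 KO arrays than on any WT array. Ndufa3 (chr7:3617123-3617422, plus strand), Uqcr11 (chr10:80406772-80407071, minus strand) and Atp5e (chr2:174464052-174464351, minus strand) had the most negative difference of their complexes (Atp5e with a background offset of 16). Capitals mark the motifs: 1 YY1 core in Ndufa9, 1 ETS core and, read on the other strand, 1 NRF1 core in Uqcr11, and 1 ETS core in Atp5e, also read on the other strand. Ndufa3 and Atp5pb hold none of the 3 cores.
Ndufa9: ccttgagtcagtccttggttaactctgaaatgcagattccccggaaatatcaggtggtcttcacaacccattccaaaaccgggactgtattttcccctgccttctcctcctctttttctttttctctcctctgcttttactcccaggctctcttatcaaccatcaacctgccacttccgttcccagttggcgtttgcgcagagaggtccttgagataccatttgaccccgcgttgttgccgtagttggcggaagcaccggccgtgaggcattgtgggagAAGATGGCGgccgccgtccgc
Atp5pb: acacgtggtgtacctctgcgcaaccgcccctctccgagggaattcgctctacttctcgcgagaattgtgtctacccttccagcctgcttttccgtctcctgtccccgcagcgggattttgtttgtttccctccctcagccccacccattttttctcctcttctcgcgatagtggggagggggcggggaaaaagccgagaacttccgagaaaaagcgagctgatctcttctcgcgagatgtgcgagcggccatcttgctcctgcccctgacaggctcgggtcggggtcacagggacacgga
Ndufa3: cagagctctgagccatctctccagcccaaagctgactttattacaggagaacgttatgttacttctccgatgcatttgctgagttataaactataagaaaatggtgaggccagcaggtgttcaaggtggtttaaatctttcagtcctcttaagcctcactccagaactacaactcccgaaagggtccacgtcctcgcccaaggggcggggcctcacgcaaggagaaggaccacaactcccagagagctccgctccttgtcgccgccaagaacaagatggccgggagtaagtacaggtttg
Uqcr11: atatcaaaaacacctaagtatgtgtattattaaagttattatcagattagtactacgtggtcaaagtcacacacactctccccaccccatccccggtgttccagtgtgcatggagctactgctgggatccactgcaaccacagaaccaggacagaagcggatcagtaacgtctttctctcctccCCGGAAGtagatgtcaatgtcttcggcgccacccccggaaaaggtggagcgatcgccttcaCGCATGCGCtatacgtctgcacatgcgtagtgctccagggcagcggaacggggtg
Atp5e: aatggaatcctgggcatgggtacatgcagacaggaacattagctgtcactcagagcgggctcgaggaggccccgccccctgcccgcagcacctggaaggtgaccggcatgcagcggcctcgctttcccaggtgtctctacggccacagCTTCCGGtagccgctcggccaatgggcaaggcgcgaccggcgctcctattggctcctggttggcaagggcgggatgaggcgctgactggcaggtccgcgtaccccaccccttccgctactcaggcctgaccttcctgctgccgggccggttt

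No respiratory chain gene passed the test between KO and WT liver: 0 of 70 had an adjusted p under 0.05 (limma, Benjamini-Hochberg over all genes), where 207 of 8134 genes did, a background of 2.54%. At an unadjusted p under 0.05 there were 6 of 70, 3 higher (Ndufa9, Uqcrc2 and Atp5pb) and 3 lower (Ndufb2, Ndufb3 and Atp5e), below the background of 17.4% over all genes. This count rested on single mice: it was 24 without KO 1 and 26 without KO 2, 3 without WT 1 or WT 3, and 1 without KO 3, KO 4 or WT 4. All 4 KO values lay above all 4 WT values for 4 genes (background 5.37%) and below them for 1 gene (background 5.38%). The estimates leaned to one side all the same. For 54 of the 70 genes (77.1%) the KO mean was below the WT mean, against 50.3% of all genes, and the median log2 fold change, KO minus WT, was −0.25 against 0.00 over all genes. By complex the median was −0.26 for complex I, 0.02 for complex II (−0.025 with median scaling of the arrays), −0.15 for complex III, −0.40 for complex IV and −0.16 for complex V. These medians are descriptions and carry no test.

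**Figure D1:**
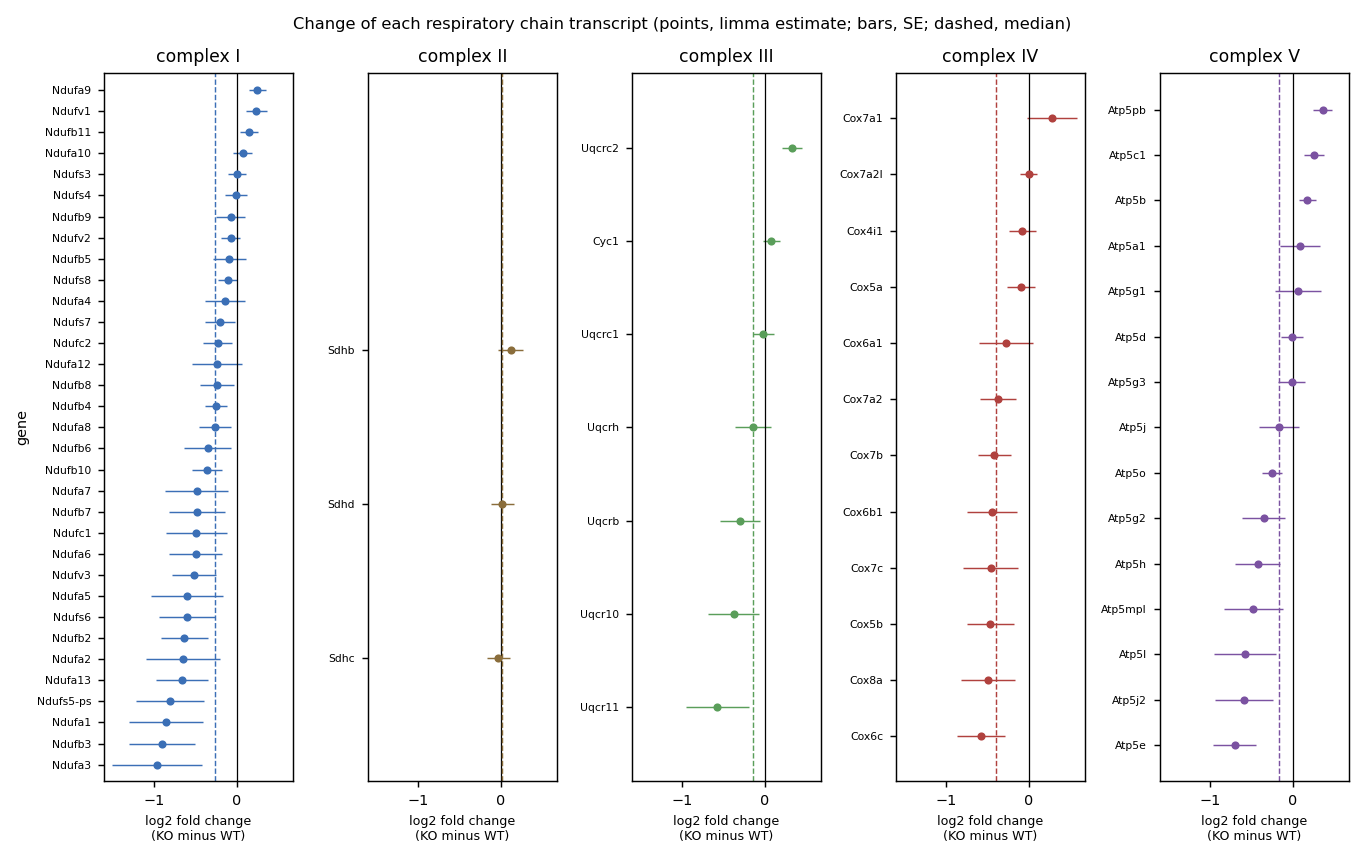
Log2 fold change (KO minus WT, x axis) of each of the 70 genes (y axis), 1 panel per complex; points are limma estimates, bars their SE with n = 4 mice per group, and dashed lines the complex medians. Complexes I and IV lie mostly left of 0, with medians of −0.26 and −0.40, while the 3 genes of complex II lie close to 0 (median 0.02; −0.025 with median scaling).

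The KO livers differed among themselves, KO 1 and KO 2 being alike. Set against the WT mean of each gene, the median of the 70 genes was 0.12 on KO 1, 0.13 on KO 2, −0.39 on KO 3 and −0.84 on KO 4 (log2), and −0.08 to 0.06 on the WT arrays. KO 1 and KO 2 were thus slightly above WT, and KO 3 and KO 4 below it. Below all 4 WT values were 8, 4, 48 and 55 of the 70 genes on KO 1 to KO 4, compared with 2577, 2033, 2244 and 2559 of the 8134 genes. Both KO 3 and KO 4 were below all WT values for 47 of 70 genes (67.1%), against 20.2% of all genes, and both were above them for 8 (11.4%), against 21.5% of all genes. On KO 4, 30 genes (42.9%) lay more than 1 log2 unit below the WT mean, against 4.08% of all genes, and on KO 3 there were 9 (12.9%, against 1.76%). KO 1 and KO 2 had none.

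The spread within the groups differed accordingly. The median SD over the 70 genes was 0.53 among KO and 0.09 among WT mice (log2, n = 4 each), against 0.22 and 0.15 over all genes, and the KO SD was the larger one for 66 of 70 genes (94.3%), against 70.3% of all genes. The median difference of −0.25 was −0.07 without KO 4 and −0.21 without KO 3. With KO 1 and KO 2 alone against WT, a choice made after these levels were seen, it was 0.13. Before normalization the mean intensity was 281 on KO 3 and 223 on KO 4, and 215 on KO 1 and 290 on KO 2, against 262 to 283 in WT; the part of array brightness in these levels was not tested.

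**Figure D2:**
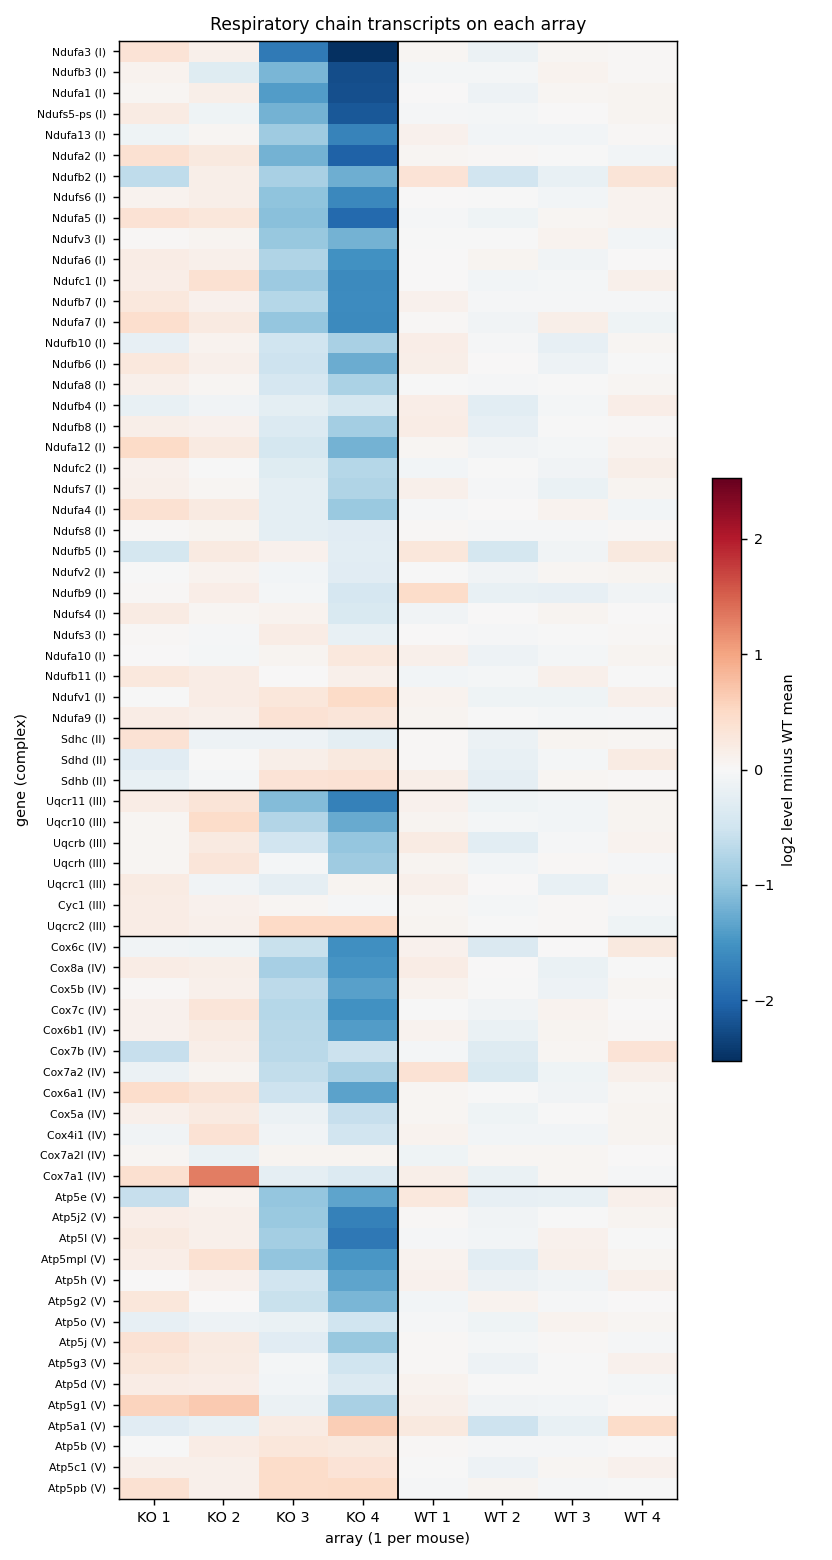
Heat map of the log2 level minus the WT mean for the 70 genes (rows, by complex) on each array (columns, KO left of WT, 1 mouse each). Blue fills most of the KO 3 and KO 4 columns, down to −2.53 for Ndufa3 on KO 4, while the KO 1, KO 2 and WT columns stay pale apart from Cox7a1 on KO 2 (1.29).

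Complex I takes electrons from NADH. Ndufa3, a small accessory subunit, had the most negative difference of the complex, with log2 levels of 11.20, 10.97, 9.07 and 8.33 on KO 1 to KO 4, against 10.91, 10.71, 10.91 and 10.88 on WT 1 to WT 4. KO 1 and KO 2 were above every WT value and KO 3 and KO 4 far below. The mean difference of −0.96 ± 0.54 (SE) did not pass the test (adjusted p = 0.39) and was −0.44 without KO 4. Ndufb3, another accessory subunit, had 10.07, 9.66, 8.81 and 7.73 in KO, against 9.92, 9.92, 10.05 and 9.99 in WT. Here KO 2 was below the WT values as well, and the difference was −0.90 ± 0.40 (adjusted p = 0.28; −0.46 without KO 4). Ndufb2 had 5.77, 6.54, 5.59 and 5.17 in KO, against 6.74, 5.91, 6.22 and 6.73 in WT, and the groups overlapped through KO 2 alone (−0.63 ± 0.28, adjusted p = 0.28; −0.30 on uncorrected intensities).

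Ndufa9, an accessory subunit that sits near the coenzyme Q site, went the other way with 11.12, 11.05, 11.29 and 11.23 in KO, against 10.995, 10.92, 10.88 and 10.89 in WT. The groups did not overlap, but by little: the difference was 0.25 ± 0.10 (adjusted p = 0.23) and was 0.09 with median scaling. Ndufv1, which binds NADH and FMN, had 11.38, 11.57, 11.67 and 11.87 in KO and 11.48, 11.28, 11.28 and 11.51 in WT (0.24 ± 0.13, adjusted p = 0.37). In this gene KO 4 was the highest of the 8 arrays.

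Core and accessory subunits of complex I differed in their estimates. The 5 catalytic core subunits kept were Ndufv1, Ndufv2, Ndufs3, Ndufs7 and Ndufs8, among which are those that carry the NADH site and iron-sulphur clusters. They had a median of −0.07, and 3 of 5 were below 0. Their array medians were 0.03, 0.06, −0.08 and −0.28 on KO 1 to KO 4. For the other 28 genes the median was −0.42, with 25 below 0, and the array medians were 0.15, 0.12, −0.63 and −1.22. The core group is small, and the difference between the 2 groups was not tested. It lay mostly on KO 3 and KO 4, where cytosolic ribosomal protein genes were low too, as described below. The labels give no RNA quality, chip or batch for the arrays, and transcript length was not examined. Among the 28, Ndufa1, a membrane subunit encoded on the X chromosome, had 11.34, 11.45, 9.89 and 9.08 in KO, against 11.31, 11.17, 11.34 and 11.36 in WT (−0.86 ± 0.45, adjusted p = 0.35). Ndufa2 and Ndufa5 were also low on KO 3 and lowest on KO 4, at 0.39, 0.24, −1.20 and −2.04 and at 0.37, 0.28, −1.06 and −1.97 relative to the WT mean on KO 1 to KO 4. Ndufb7, another accessory subunit, had 7.82, 7.67, 6.83 and 5.96 in KO, against 7.66, 7.52, 7.51 and 7.52 in WT (−0.49 ± 0.34, adjusted p = 0.49). Its difference was −0.12 without KO 4, −0.74 without KO 1 and −0.29 on uncorrected intensities. Ndufa10 and Ndufb11 were not low on KO 3 or KO 4, with differences of 0.07 ± 0.11 and 0.15 ± 0.10 (adjusted p = 0.80 and 0.50). One of the 28, Ndufs5-ps, is annotated as a transcribed pseudogene; its probe had −0.81 ± 0.41 (adjusted p = 0.35), and signal from Ndufs5 itself cannot be told apart from it here. Ndufa4, Ndufa5, Ndufb2 and Ndufa9 lie on chromosome 6 with Snd1, Ndufa5 and Ndufb2 next to it among these genes on either side, and sequence of the stem cell strain that may remain around the KO allele was not examined.

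Complex II oxidises succinate and belongs to the tricarboxylic acid cycle too. Of its 3 genes, Sdhb and Sdhd were not low on KO 3 and KO 4, while Sdhc was lowest on KO 4. Sdhb, the iron-sulphur subunit, had 9.52, 9.65, 10.04 and 10.07 in KO, against 9.84, 9.47, 9.76 and 9.73 in WT, so that KO 3 and KO 4 were the highest arrays (0.12 ± 0.15, adjusted p = 0.73, and −0.022 with median scaling). Sdhc, a membrane anchor, had 11.10, 10.61, 10.61 and 10.49 in KO, against 10.76, 10.59, 10.79 and 10.79 in WT (−0.03 ± 0.14, adjusted p = 0.95). Sdhd, the other anchor, had 6.20, 6.47, 6.63 and 6.72 in KO, against 6.52, 6.29, 6.44 and 6.69 in WT (0.02 ± 0.14, adjusted p = 0.96, and −0.025 with median scaling). In each of the 3 genes the groups overlapped.

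In complex III, which passes electrons from coenzyme Q to cytochrome c, the subunits went both ways. Uqcrc2, a large core protein without a redox centre, had 11.71, 11.65, 12.03 and 12.03 in KO, against 11.59, 11.52, 11.56 and 11.42 in WT. All KO values were above the WT values, KO 3 and KO 4 the most, with a difference of 0.33 ± 0.12 (adjusted p = 0.19; 0.11 with median scaling). Uqcr11, a small accessory subunit, had 12.20, 12.34, 10.93 and 10.31 in KO, against 12.12, 11.91, 11.95 and 12.09 in WT. KO 1 and KO 2 were above all WT values and KO 3 and KO 4 well below the lowest (−0.57 ± 0.39, adjusted p = 0.48; −0.88 without KO 2 and −0.20 without KO 4). Uqcrb, which helps to form the coenzyme Q site, had 9.40, 9.58, 8.88 and 8.37 in KO, against 9.56, 9.09, 9.33 and 9.45 in WT (−0.30 ± 0.24, adjusted p = 0.56; −0.47 without KO 2 and −0.071 without KO 4). Cyc1, the cytochrome c1 of the complex, was 10.40, 10.32, 10.26 and 10.18 in KO and 10.27, 10.16, 10.23 and 10.18 in WT (0.08 ± 0.10, adjusted p = 0.73), so its KO 4 value was within the WT range.

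Complex IV, cytochrome c oxidase, had the lowest median, with 10 of 12 genes below 0 and array medians of 0.07, 0.18, −0.59 and −1.08 on KO 1 to KO 4. KO 3 and KO 4 were each below all WT values for 11 of 12 genes (91.7%), against 27.6% and 31.5% of all genes. Cox6c, a small nuclear subunit, had 10.60, 10.58, 10.12 and 9.14 in KO, against 10.80, 10.33, 10.70 and 10.93 in WT (−0.58 ± 0.29, adjusted p = 0.34; −0.26 without KO 4). Cox7a2, the liver form of subunit 7a, had 6.58, 6.80, 6.11 and 5.91 in KO, against 7.09, 6.34, 6.62 and 6.85 in WT (−0.38 ± 0.22, adjusted p = 0.40; −0.23 without KO 4 and −0.21 on uncorrected intensities). In both genes KO 3 and KO 4 were below the WT range and KO 1 and KO 2 within it. Cox7b lay close to background: it was detected on 2 of 4 KO and 4 of 4 WT arrays, with 4.44, 5.17, 4.35 and 4.49 in KO and 4.97, 4.70, 5.07 and 5.37 in WT (−0.42 ± 0.20, adjusted p = 0.31; −0.12 on uncorrected intensities). Only its KO 2 value was inside the WT range. Cox5b, Cox6b1, Cox7c, Cox8a and Cox6a1 had differences of −0.28 to −0.50 (adjusted p = 0.43 to 0.72), with KO 4 at −1.53 to −1.35 relative to the WT mean. The 2 subunits that form the early assembly core around the mitochondrially encoded Cox1, Cox4i1 and Cox5a, had differences of −0.08 ± 0.16 and −0.09 ± 0.17 (adjusted p = 0.85 and 0.83).

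Several complex IV subunits exist as tissue isoforms, and their detection is given here. The common forms Cox4i1, Cox6a1, Cox6b1 and Cox8a were detected on all 8 arrays. Cox4i2 (lung), Cox6a2 and Cox8b (heart and muscle), Cox6b2, Cox7b2 and Cox8c (testis) were detected on none. This cannot show that the transcripts were absent, because the probes of Fgb, Ndufs1, Uqcrq and Atp5k were not detected on any array either. Cox7a1, the heart and muscle form of subunit 7a, was detected on all 8, with 5.55, 6.45, 4.93 and 4.81 in KO and 5.31, 4.99, 5.20 and 5.12 in WT. KO 2 stood 1.29 above the WT mean, and the difference of 0.28 ± 0.30 (adjusted p = 0.69) was −0.056 without KO 2, 0.44 without KO 3, 0.49 without KO 4 and 0.13 on uncorrected intensities. Of 6 striated muscle markers, 5 (Ckm, Acta1, Myh4, Myl1 and Tnnt3) were detected on no array, and their list summed to 112 to 115 intensity units in KO and 110 to 115 in WT. Brown fat also uses Cox7a1, and its markers Ucp1 and Adipoq were detected on no array; the 4 genes of that list, among them Elovl3, which liver also expresses, summed to 96.6 to 149 in KO and 205 to 264 in WT. Cox7a2l, a related protein of the supercomplex that joins complexes III and IV, had 9.58, 9.36, 9.59 and 9.59 in KO and 9.42, 9.58, 9.57 and 9.54 in WT (0.00 ± 0.10, adjusted p = 1.00; −0.13 with median scaling).

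**Figure D3:**
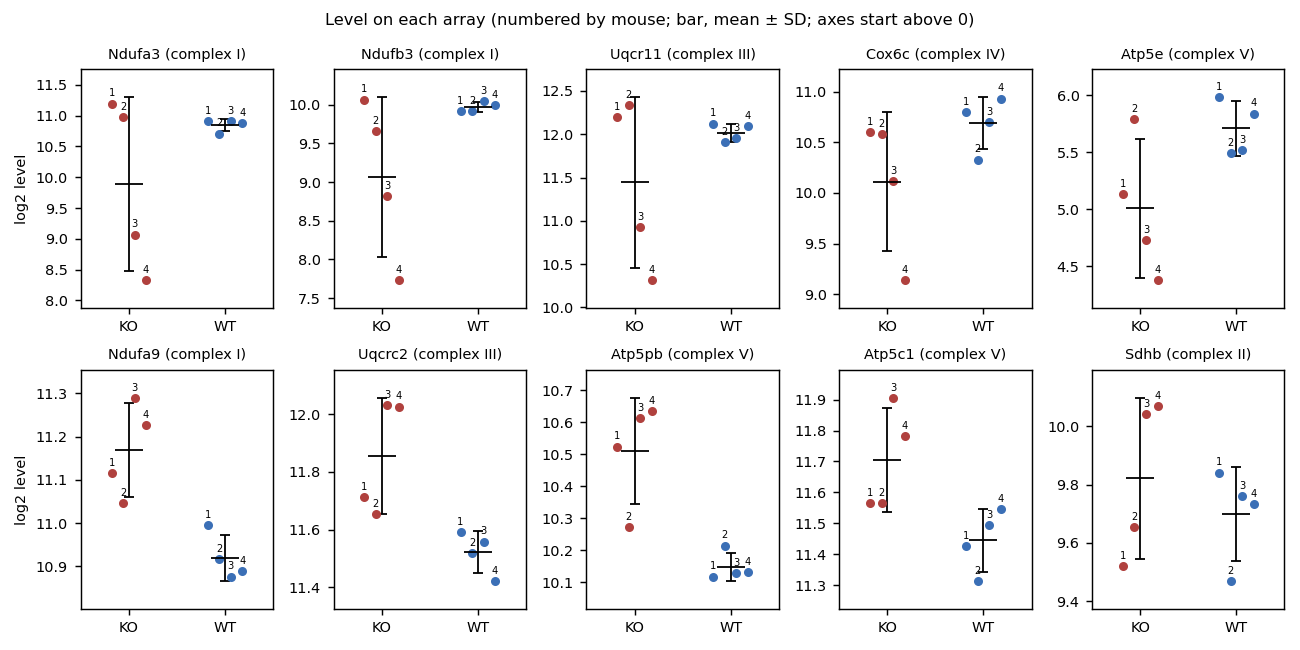
Log2 level (y axis, starting above 0) of 10 genes in KO (left, red) and WT (right, blue); points are single mice with their numbers and bars mean ± SD, n = 4 each. In Ndufa3, Ndufb3, Uqcr11, Cox6c and Atp5e the points of KO 3 and KO 4 lie below the WT range; in Ndufa9, Uqcrc2, Atp5pb and Atp5c1 all KO points lie above it; in Sdhb the groups overlap.

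The ATP synthase (complex V) held both signs. Atp5pb, the b subunit of the stalk, had the lowest p of the 70 genes, with 10.52, 10.27, 10.61 and 10.63 in KO, against 10.12, 10.22, 10.13 and 10.13 in WT. The groups did not overlap, and the difference was 0.36 ± 0.11, a 1.29-fold higher level in KO (adjusted p = 0.13; 0.20 with median scaling). Atp5c1, the γ subunit that turns inside the catalytic head, had 11.56, 11.56, 11.91 and 11.78 in KO, against 11.43, 11.31, 11.50 and 11.55 in WT (0.26 ± 0.12, adjusted p = 0.29; 0.05 with median scaling). Again no KO value was below a WT value. Atp5e, the ε subunit, had 5.13, 5.79, 4.73 and 4.38 in KO, against 5.98, 5.49, 5.52 and 5.84 in WT, and was detected on 3 of 4 KO arrays. KO 2 was within the WT range and the other KO values below it (−0.70 ± 0.26, adjusted p = 0.20). This dim probe depended on the background correction: the difference was −0.36 with an offset of 50 and −0.24 on uncorrected intensities. Without KO 2, Atp5e was the single member to pass the test, at −0.95 (adjusted p = 0.048). Atp5o, a subunit of the peripheral stalk, was the gene with all KO values below WT: 6.74, 6.81, 6.78 and 6.44 in KO, against 6.91, 6.83, 7.03 and 7.0002 in WT (−0.25 ± 0.12, adjusted p = 0.30).

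The subunits of the catalytic head of ATP synthase, F1, are Atp5a1, Atp5b, Atp5c1, Atp5d and Atp5e. They had a median of 0.09, with 2 of 5 below 0, and array medians of 0.00, 0.12, 0.21 and 0.24 on KO 1 to KO 4. Atp5e differed from these medians, at −0.98 on KO 3 and −1.33 on KO 4 relative to the WT mean. Atp5b, the β subunit that carries the catalytic sites, had 13.63, 13.83, 13.92 and 13.88 in KO, against 13.67, 13.62, 13.62 and 13.65 in WT (0.18 ± 0.10, adjusted p = 0.41). KO 2, KO 3 and KO 4 were above the WT range. For the other 10 genes of the complex the median was −0.30, with 8 below 0 and array medians of 0.26, 0.13, −0.38 and −1.06. These 10 include the proton-carrying c ring (Atp5g1, Atp5g2 and Atp5g3) and small membrane subunits such as Atp5j2, which had 12.70, 12.67, 11.61 and 10.82 in KO, against 12.57, 12.45, 12.54 and 12.60 in WT (−0.59 ± 0.36, adjusted p = 0.43). The 2 groups of subunits were not tested against each other, and the limits given for the groups of complex I hold here too.

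The genes at the detection threshold and the probes set limits to these values. Just outside it were Uqcrfs1, the Rieske iron-sulphur protein of complex III, detected on 2 KO and 1 WT array, and Ndufab1, the mitochondrial acyl carrier protein, on 1 and 1. Just inside were Cox7b (2 KO and 4 WT arrays) and Atp5e (3 and 4). Besides the isoforms above, Ndufs1, Uqcrq and Atp5k were detected on no array. For 12 genes more than 1 probe was kept: the probes had the same sign in 10 and opposite signs in Ndufa8 (−0.26 and 0.01) and Ndufb11 (0.15 and −0.04).

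The rest of the mitochondrial machinery was compared through 7 lists with 196 genes kept. Of these, 2 passed the test, both higher in KO, a share below the 2.54% of all genes (207 of 8134). Fh1, the fumarase that follows complex II in the tricarboxylic acid cycle, had 11.05, 10.98, 11.18 and 11.16 in KO, against 10.44, 10.01, 10.08 and 10.14 in WT (0.93 ± 0.12, adjusted p = 0.0061). Coq10b, a protein that binds coenzyme Q, had 9.07, 9.17, 9.22 and 9.21 in KO, against 8.49, 8.27, 8.27 and 8.81 in WT (0.71 ± 0.13, adjusted p = 0.026). In both genes the 4 KO mice lay close together and above every WT mouse. Neither passed the test with median scaling of the arrays. These calls made 1 of 20 genes of the tricarboxylic acid cycle and pyruvate dehydrogenase list (median 0.15) and 1 of 15 of the electron carrier and coenzyme Q list (median 0.02).

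The other 5 lists had no called gene in either direction. Assembly factors of the respiratory chain (38 genes) had a median of −0.08, with array medians of −0.04, 0.05, −0.07 and −0.11 on KO 1 to KO 4. Mitochondrial ribosomal proteins (70 genes) had −0.07, with 0.04, 0.13, −0.08 and −0.34. Regulators of mitochondrial gene expression (21 genes), carriers and porins (14) and import and cristae genes (18) had medians of 0.07, 0.10 and 0.05. Single genes of these lists were as low on KO 3 and KO 4 as the subunits. Cox17, a copper chaperone of complex IV, had 10.27, 10.26, 8.85 and 8.21 in KO, against 10.03, 10.02, 9.85 and 10.01 in WT (−0.58 ± 0.40, adjusted p = 0.49). Tomm7, a small subunit of the outer membrane import pore, had 9.97, 9.74, 8.02 and 7.35 in KO, against 9.47, 9.45, 9.50 and 9.44 in WT (−0.70 ± 0.50, adjusted p = 0.51). Slirp, which stabilises mitochondrial mRNAs, had 9.22, 9.26, 7.68 and 6.75 in KO, against 9.13, 9.14, 9.09 and 9.32 in WT (−0.94 ± 0.48, adjusted p = 0.34). Cox17, Tomm7 and Slirp were picked after their values were seen.

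Genes outside the mitochondrion were low on the same arrays. A list of 57 cytosolic ribosomal protein genes, added after the data were seen, had array medians of 0.04, 0.18, −0.47 and −1.06 on KO 1 to KO 4 and −0.06 to 0.05 on the WT arrays. Of these, 40 (70.2%) were below all WT values on KO 3 and 46 (80.7%) on KO 4, against 27.6% and 31.5% of all genes. For 48 of 57 (84.2%) the KO mean was below the WT mean, against 50.3% of all genes (median −0.33, 0 called). Cell type markers varied on these arrays too, some low and some high on KO 3 and KO 4. S100a8, a neutrophil gene, had 6.27, 6.36, 4.87 and 4.26 in KO, against 6.74, 6.88, 5.89 and 7.15 in WT, and S100a9 had 5.35, 5.48, 4.50 and 4.35, against 5.62, 5.52, 4.78 and 5.91. Their list of 7 neutrophil markers summed to 138 to 226 intensity units in KO and 185 to 301 in WT, with Mpo and Ngp detected on no array. Hba-a1, a haemoglobin chain, had 12.76, 13.46, 12.22 and 11.60 in KO, against 12.13, 13.38, 13.23 and 12.91 in WT, while Alas2, the other erythroid marker on the array, had 9.43, 9.71, 9.66 and 9.87, against 9.86, 9.92, 10.16 and 9.82. Their sum was 4043 to 12104 in KO and 5408 to 11642 in WT. Other markers were above the WT range on KO 3 and KO 4. Dcn, a stellate cell marker, had 10.78, 11.05, 11.22 and 11.45 in KO, against 10.83 to 10.95 in WT. Serpina1a, a hepatocyte marker, had 11.11, 11.88, 12.25 and 12.57, against 11.67 to 12.07. The part of these markers and of the wider shift on KO 3 and KO 4 in the values of the respiratory chain was not tested.

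**Figure D4:**
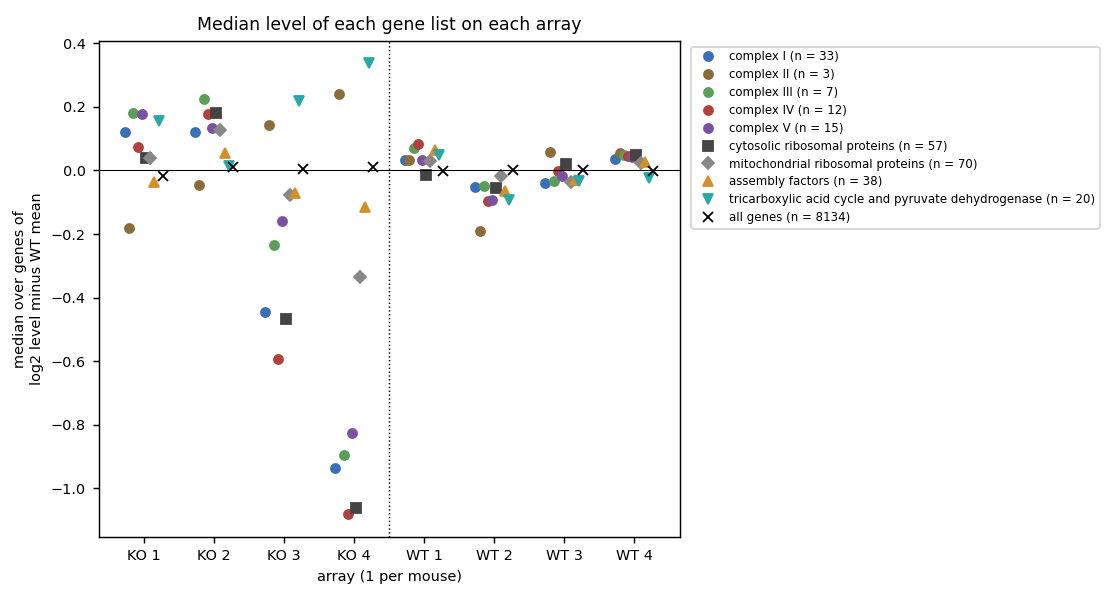
Median over the genes of a list of the log2 level minus the WT mean (y axis) on each array (x axis, KO left of WT, 1 mouse each); each marker is 1 list with its number of genes. On KO 4 complexes I, III, IV and V and the cytosolic ribosomal proteins lie between −0.83 and −1.08, while complex II (0.24) and the tricarboxylic acid cycle list (0.34) lie above 0 and all genes at 0.01.

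Weighting the arrays by their estimated precision (limma array weights) gave many more calls. With it 36 of the 70 genes passed the test, 30 lower and 6 higher in KO, but 2190 of the 8134 genes did as well, a share of 26.9%. KO 3 received a weight of 4.80, and the other KO arrays 0.26 to 0.58 and the WT arrays 0.73 to 1.67, so that these calls rest mostly on KO 3. With equal weights the count was 0 or 1 under each of the other settings.

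**Figure D5:**
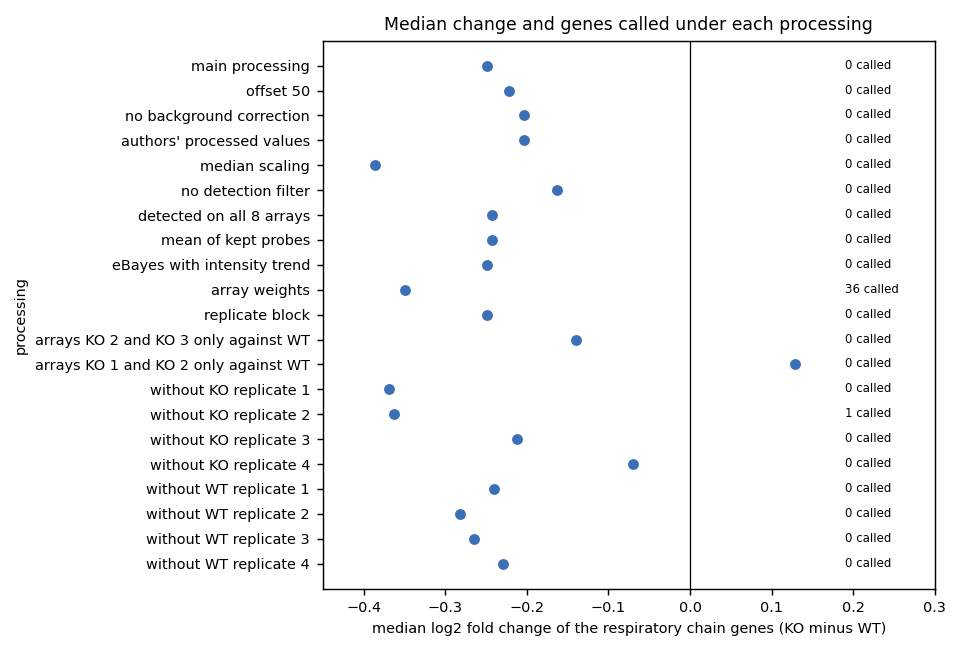
Median log2 fold change (KO minus WT, x axis) of the respiratory chain genes and the number called (text at right) under each processing (y axis). Medians lie between −0.39 (median scaling) and −0.07 (without KO replicate 4) apart from 0.13 with KO 1 and KO 2 only, and array weights give 36 called genes where the others give 0 or 1.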

How the data were processed

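Liver RNA of 4 Snd1 KO and 4 WT mice was hybridised to Illumina MouseRef-8 v2.0 bead arrays, 1 per mouse, grouped by sample title. The authors deposited bead-averaged probe intensity, not normalized, with a detection p-value per probe, and a table of normalized intensity of the same arrays, used as an alternative; its normalization tool was not given in the sources used here. Intensities were background-corrected with normexp (control moments from the detection p-values, offset 16), quantile-normalized and log2-transformed (R 4.3.3, limma 3.58.1). Probes with 1 symbol (23978 of 25697) and detection p under 0.05 on at least 4 arrays were kept, the brightest probe per gene was used (8134 genes), and KO was compared with WT by lmFit and eBayes, two-sided, with Benjamini-Hochberg adjustment over all genes. The fit was checked on simulated data. Replicates were described as biological quadruplicates, and their number limits the precision. Full values are given for the 3 genes of each complex with the lowest p, those with the largest difference in either direction, and genes with a sample far from its group; other genes were named after their values were seen. The members and lists were chosen with earlier results of these data known. Alternatives changed the background, scaling, filter, probe choice, variance model, array weights, replicate block and arrays used.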

Additional observations from a re-analysis of the deposited data

Results flagged for a closer look

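In 6 of 140 sets of 4 values, 1 mouse lay far from the others of its group by Dixon's ratio, where chance gives about 1 in 20. On WT 2 these were Atp5pb at 10.2, above the other WT values, and Ndufa3 at 10.7 and Sdhc at 10.6, both below them. On WT 1 it was Ndufb7, an accessory subunit of complex I, at 7.66, above the others. On KO 2 they were Cox7b at 5.17, above the other KO values, and Cox7a2l at 9.36, below them. The median of the 3 complex II genes was −0.19 on WT 2 relative to the WT mean, below the other WT arrays.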

How the results depend on the processing

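The count of 0 called respiratory chain genes, with 6 at an unadjusted p under 0.05, became 36 with array weights and ranged over 0 to 1 when each mouse was left out in turn; the other settings gave 0. Over all genes 207 passed the test (46.4% higher in KO), against 97 with median scaling (14.4% higher), 96 with no detection filter, 2190 with array weights and 33 with arrays KO 1 and KO 2 only, a setting chosen after the data were seen. Leaving out single mice gave 41 to 518 such genes: 518 without KO 1, 137 without KO 2, 47 without KO 3, 115 without KO 4, 49 without WT 2, 41 without WT 3 and 66 without WT 4. In the other mitochondrial lists the count of 2 became 4 on uncorrected intensities, 4 on the authors' normalized table, 0 with median scaling, 57 with array weights, 0 with KO 1 and KO 2 only, and 1 to 4 when mice were left out. The cause was not tested. With the replicate block 0 respiratory chain genes, 1 gene of the other mitochondrial lists and 92 of all genes were called. The sample titles number the mice but state no pairing. Deviations of same-numbered mice correlated at 0.09, −0.09, 0.12 and −0.01 for numbers 1 to 4. Those of other pairs correlated at −0.15 to 0.18. These values cannot exclude a pairing, such as by litter.

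With KO 1 and KO 2 only, the median was 0.13 for all respiratory chain genes and 0.14 for complex IV, and the sign turned for Cox7a2l (−0.060), Ndufa3 (0.24), Ndufb7 (0.19), Sdhb (−0.11), Sdhc (0.13), Sdhd (−0.15), Uqcr11 (0.25) and Uqcrb (0.13). Median scaling turned Cox7a2l (−0.13), Sdhb (−0.022) and Sdhd (−0.025), array weights turned Cox7a1 (−0.047), and KO 2 and KO 3 only turned Cox7a2l (−0.055). With mice left out in turn, Cox7a1 ranged from −0.056 to 0.49, Cox7a2l from −0.035 to 0.057, Sdhc from −0.16 to 0.042 and Sdhd from −0.055 to 0.12. Of 397 pairs of a setting and a named gene, the targeted gene Snd1 included, 359 kept direction and side of the threshold, 14 newly passed it and 24 reversed. Cox7b and Atp5e lie near background, where log2 differences are compressed.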
